A study of Homo sapiens with 6 samples.

Results

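Cancer stem cells (CSCs) are commonly recognised by a small set of surface proteins, enzymes and transcription factors, and 10 genes of this kind were followed here in docetaxel-resistant prostate cancer cells. The surface proteins were CD44, CD24 and PROM1 (CD133), the enzymes were ALDH1A1 and ALDH1A3, and the transcription factors were KLF4, KLF5, SOX2, SOX9 and POU5F1 (OCT4). They were taken by symbol from a table of read counts for 28008 genes, and all 10 were listed in it. Of them, 6 passed the filter on low counts that 14292 genes passed, and 4 (PROM1, ALDH1A1, SOX2 and POU5F1) did not.

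The cells profiled by RNA-Seq, DU-145-DR/tet-MUC1shRNA, were made from DU-145, an established human prostate cancer line, by selection in docetaxel (DTX). All groups thus share the DTX resistance and, by the study's account, a short hairpin RNA against MUC1 whose expression is switched on by doxycycline (DOX). The 3 DOX-negative libraries came from cells given the DMSO vehicle and the 3 DOX-positive libraries from cells given 500 ng/ml DOX, in each case from triplicate cultures. Only the treatment labels of the DOX-positive samples name the hairpin, and only those of the DOX-negative samples name DTX resistance. The sample titles of both groups carry DR for the resistant line, whereas the headers of the data columns abbreviate it TR. Cells with DOX and a control hairpin were not analysed here, so silencing of MUC1 and exposure to DOX cannot be told apart. The comparison asks what happens to CSC markers when MUC1, a transmembrane mucin whose C-terminal subunit MUC1-C signals to the nucleus, is silenced.

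As background, CSCs are the cells of a tumor that self-renew and can regrow it, and in prostate cancer they are usually enriched by sorting for surface CD44, by low CD24, by PROM1 or by ALDH activity. CD44 is the receptor for hyaluronan, ALDH1 enzymes oxidise retinaldehyde to retinoic acid, and the SOX, KLF and POU factors bind DNA and are known for holding progenitor or pluripotent states. KLF5, SOX9 and CD24 are also ordinary products of epithelial cells. RNA from a whole culture cannot tell more cells expressing a gene from more RNA per cell.

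The libraries held between 15092691 and 23243713 counts. Levels are given as CPM, that is, counts per library total scaled with TMM factors, and a floor of 3 counts amounted to 0.131 to 0.202 CPM. This floor covers counting error only. Without DOX, MUC1 had counts of 387, 484 and 396, and with DOX it had 75, 74 and 66. By the edgeR fit, MUC1 in DOX-positive cells was at 17.4% of its level in DOX-negative cells. This is a log2 fold change of -2.52, with adjusted p = 4.47e-11 by edgeR's quasi-likelihood test. The prostate genes KLK3 and FOLH1 had 0 counts in every library, as did the neuroendocrine genes CHGA, INSM1 and NEUROD1, whereas the epithelial markers KRT8, KRT18, EPCAM and CDH1 were expressed in every library.

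The genes differ in the DNA before their starts, and the stretches of 4 of them are printed to show an expressed factor and an expressed surface marker beside a silent enzyme and a silent factor. RefSeq windows of GRCh38.p14 were matched for 8 of the 10 genes by symbol. Each line gives, 5′ to 3′ on the gene's strand, the bases before a RefSeq start that lie outside every annotated exon. Capitals mark the GC box GGGCGG, the box CACCC and the TATA box TATAAA on either strand, so that a GC box on the other strand reads CCGCCC and a CACCC box reads GGGTG. The KLF4 stretch is chr9:107489770-107489969 on the minus strand, CD24 is chr6:106975628-106975827 on the minus strand, ALDH1A1 is chr9:72953057-72953253 on the minus strand and SOX2 is chr3:181711725-181711923 on the plus strand.
KLF4: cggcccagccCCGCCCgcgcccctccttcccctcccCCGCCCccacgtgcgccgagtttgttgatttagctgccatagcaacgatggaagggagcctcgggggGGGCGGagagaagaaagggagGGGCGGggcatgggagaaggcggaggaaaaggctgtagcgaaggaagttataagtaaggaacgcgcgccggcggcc
CD24: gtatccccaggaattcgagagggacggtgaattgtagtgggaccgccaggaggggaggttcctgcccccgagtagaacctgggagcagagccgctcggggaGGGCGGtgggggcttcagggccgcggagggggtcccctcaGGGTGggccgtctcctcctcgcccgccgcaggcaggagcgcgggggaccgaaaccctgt
ALDH1A1: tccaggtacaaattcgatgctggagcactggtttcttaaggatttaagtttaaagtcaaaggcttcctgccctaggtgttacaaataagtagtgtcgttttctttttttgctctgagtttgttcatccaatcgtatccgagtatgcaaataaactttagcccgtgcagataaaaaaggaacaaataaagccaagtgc
SOX2: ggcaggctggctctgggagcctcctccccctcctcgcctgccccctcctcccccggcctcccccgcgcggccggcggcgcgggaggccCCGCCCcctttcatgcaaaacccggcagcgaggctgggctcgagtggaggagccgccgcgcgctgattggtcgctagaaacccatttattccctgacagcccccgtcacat

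The KLF4 stretch held 4 GC boxes and 19 CpG dinucleotides, and the CD24 stretch held 1 GC box, 1 CACCC box and 16 CpG. The SOX2 stretch held 1 GC box and 19 CpG although its gene had at most 2 counts in any library. The ALDH1A1 stretch held 5 CpG and none of the boxes marked in capitals. The CCAAT box, not marked here, was also counted over each whole window of 300 bases. It occurred 1 time for ALDH1A1 and for SOX2, and 0 times for KLF4 and for the printed CD24 start. Of all windows, 34.6% held it. Over the 200 bases before the start in all 34796 RefSeq windows, the median was 9 CpG, 40.1% held a GC box, 48.0% a CACCC box and 8.64% a TATA box, and 6.01% held at least 4 GC boxes. A match describes the letters only, and the silent SOX2 had as many CpG as the expressed KLF4.

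The 10 genes fell into 6 that were clearly transcribed and 4 that were at or near 0. PROM1, the pentaspan membrane protein CD133, had 0, 1 and 0 counts in DOX-negative cells and 1, 2 and 3 counts in DOX-positive cells. ALDH1A1, the cytosolic retinaldehyde dehydrogenase that most ALDH-based CSC assays are taken to read, had 0, 0 and 0 counts against 2, 1 and 0. SOX2, a core factor of pluripotent and neural progenitor cells, had 0, 0 and 2 counts in each group. POU5F1, which encodes OCT4, had 0, 1 and 0 counts against 8, 1 and 1. Its 8 counts were in DOX-positive replicate 1, and no other library of either group had more than 1. A change in these 4 genes was not detectable at this depth, and none was tested. Exons of POU5F1 overlap those of TCF19 on the opposite strand, and exons of PROM1 overlap those of FGFBP2 on the same strand. How the counting treated reads in shared exons is not given in the sources used here.

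Relatives and neighbours of the silent factors had few counts. SOX2-OT, the long noncoding transcript that overlaps SOX2, had 1 to 7 counts, and the POU5F1 copies POU5F1B, POU5F1P3 and POU5F1P4 had 0 counts in every library. POU5F1P5, a processed copy named after its values were seen, had 3, 15 and 13 counts in DOX-negative cells and 20, 5 and 9 in DOX-positive cells. It thus held more counts than POU5F1 itself in every library, and how reads were divided between POU5F1 and its copies is not given in the sources used here.

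**Figure D1:**
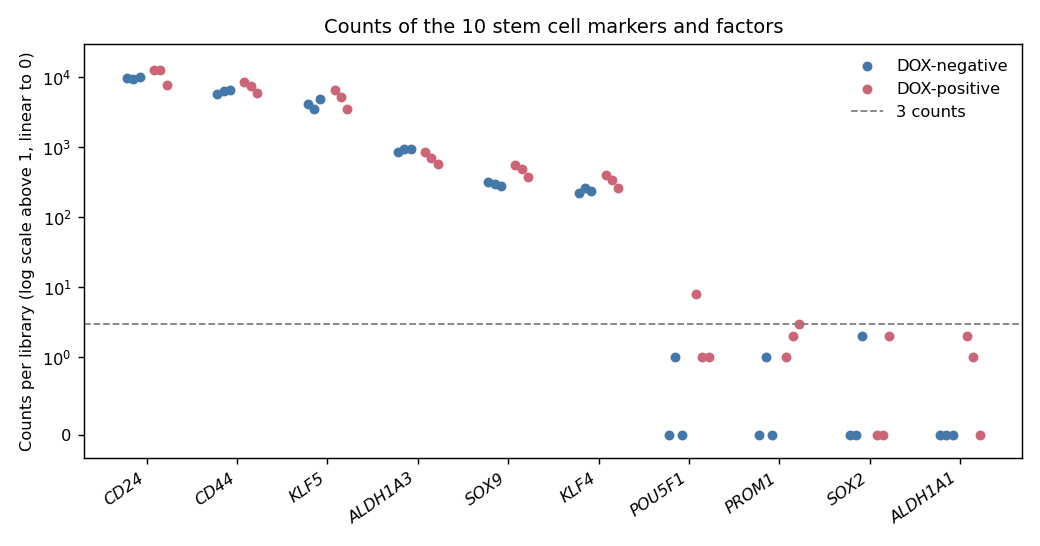
Deposited read counts of the 10 genes in each library, on a logarithmic axis that also carries 0, with DOX-negative and DOX-positive libraries in different colours. PROM1, ALDH1A1, SOX2 and POU5F1 lie between 0 and 8 counts, while the lowest of the other genes, KLF4, lies between 222 and 404 counts.

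Levels between genes were ordered per length, from the deposited TPM values, which divide each gene's reads by its length and give every library the same total. CD24 had the highest level, with a mean TPM of 212 over the 6 libraries (range 160 to 287). KLF5 followed with a mean TPM of 76.9 (65.3 to 89.0), CD44 with 62.2 (47.9 to 86.6) and ALDH1A3 with 14.9 (9.79 to 25.1). Each of these genes was above the next in 6 of 6 libraries. The ranges between libraries also vary with the share of a library's TPM that short noncoding RNAs took, as given further on. By CPM, CD44 ranked 2 and KLF5 ranked 3, so the order of this pair rests on gene length. KLF4 at a mean TPM of 6.22 (4.0 to 8.64) and SOX9 at 6.12 (3.48 to 7.15) could not be put in order, since KLF4 was the higher in 2 of 6 libraries. PROM1, SOX2, ALDH1A1 and POU5F1 had mean TPM values of at most 0.018, and their order rests on single reads. POU5F1's values are low for its counts, because the length its TPM implies is 26392 bases against 2896 bases of annotated exons.

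CD44, which binds hyaluronan and anchors the cytoskeleton through ezrin, radixin and moesin, was at 316, 321 and 329 CPM in DOX-negative cells and 379, 392 and 397 CPM in DOX-positive cells. All 3 DOX-positive libraries were above all 3 DOX-negative libraries. The mean rose from 322 ± 6.73 to 389 ± 9.31 CPM (SD, n = 3 each), with a log2 fold change of 0.27, a standard error of 0.0588 and an adjusted p = 0.00144 by edgeR's quasi-likelihood test with Benjamini-Hochberg adjustment over all genes tested. CD44 lies at chr11:35138870-35232402 on the plus strand (GRCh38, GENCODE 29), and its exons overlap those of the antisense gene CD44-AS1. Whether the counting used strand is not given in the sources used here, so reads of CD44 and CD44-AS1 cannot be told apart.

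CD24, a small glycosylated membrane protein that is low on many CSC preparations, was at 534, 478 and 496 CPM in DOX-negative cells and 557, 667 and 526 CPM in DOX-positive cells. The groups overlapped, since DOX-positive replicate 3 was below DOX-negative replicate 1, and DOX-positive replicate 2 stood highest. The mean rose from 503 ± 28.6 to 584 ± 74.2 CPM, with a log2 fold change of 0.22, a standard error of 0.0760 and adjusted p = 0.0390. Without DOX-positive replicate 2 the log2 fold change was 0.11 with adjusted p = 0.270, and without DOX-negative replicate 2 or 3 the adjusted p was 0.110 and 0.0851. CD24 lies at chr6:106969831-106975627 on the minus strand.

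The surface profile that sorts for CSCs combines high CD44 with low CD24, so the ratio of their counts was taken inside each library, where it does not depend on scaling between libraries. The CD44-to-CD24 count ratio was 0.592, 0.672 and 0.665 in DOX-negative cells and 0.680, 0.588 and 0.754 in DOX-positive cells. The groups overlapped, with the lowest ratio of all in DOX-positive replicate 2. The difference in mean log2 ratio was 0.062, with p = 0.6 by a two-sided exact permutation test, and 0.6 after adjustment over the 2 ratios tested, where 3 libraries against 3 cannot go below 0.1. Leaving out 1 library at a time, the difference ranged from -0.022 to 0.16, so a change in the ratio was not shown in either direction. The ratio compares RNA over a whole culture and does not measure the surface profile of single cells.

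ALDH1A3, which makes retinoic acid from retinaldehyde, was the only one of the 6 tested genes that was lower in DOX-positive cells. Its CPM was 47.8, 48.4 and 46.9 in DOX-negative libraries and 36.7, 36.6 and 39.1 in DOX-positive libraries, and the groups did not overlap. The mean fell from 47.7 ± 0.762 to 37.5 ± 1.42 CPM. The edgeR fit gave 78.5% of the DOX-negative level, a log2 fold change of -0.35 with a standard error of 0.0795 and adjusted p = 0.00223. ALDH1A3 lies at chr15:100877714-100916626 on the plus strand, and its exons overlap those of the antisense gene AC015712.2 and of AC015712.5 on the same strand. The planned ratio of ALDH1A3 to ALDH1A1 was not computed, because ALDH1A1 had fewer than 10 counts in every library.

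Among the transcription factors, SOX9 had the largest change of the 6 tested genes. SOX9, a factor of epithelial progenitors and of cartilage, was at 17.4, 15.1 and 13.7 CPM in DOX-negative cells and 24.6, 25.9 and 25.4 CPM in DOX-positive cells, with every DOX-positive library above every DOX-negative one. Its mean rose from 15.4 ± 1.87 to 25.3 ± 0.674 CPM, which is 1.64-fold, with a log2 fold change of 0.72, a standard error of 0.107 and adjusted p = 3.30e-05. SOX9 lies at chr17:72121020-72126420 on the plus strand. The neighbouring noncoding gene SOX9-AS1 had 0 to 15 counts and was not tested.

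KLF4, a zinc-finger factor of differentiating epithelium that is also used to reprogram cells to pluripotency, was at 12.2, 13.6 and 11.6 CPM in DOX-negative cells and 17.6, 17.8 and 17.7 CPM in DOX-positive cells. The groups did not overlap, and the DOX-positive libraries lay close together. The mean rose from 12.5 ± 0.979 to 17.7 ± 0.0868 CPM, with a log2 fold change of 0.51, a standard error of 0.113 and adjusted p = 0.00187. KLF4 lies at chr9:107484852-107490482 on the minus strand, so that the stretch printed above falls between exons of its annotated transcripts.

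KLF5, a related factor of proliferating basal epithelium, was at 230, 179 and 243 CPM in DOX-negative cells and 290, 276 and 238 CPM in DOX-positive cells. The groups overlapped, with DOX-positive replicate 3 below DOX-negative replicate 3 and DOX-negative replicate 2 standing low. The mean rose from 217 ± 33.9 to 268 ± 26.8 CPM, with a log2 fold change of 0.31, a standard error of 0.0895 and adjusted p = 0.0143. Without DOX-negative replicate 2 the log2 fold change was 0.18 with adjusted p = 0.0850, and without DOX-positive replicate 1 it was 0.24 with adjusted p = 0.0772. KLF5 lies at chr13:73054976-73077542 on the plus strand.

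KLF5 was far more abundant than KLF4 in every library, with a KLF5-to-KLF4 count ratio of 18.8, 13.2 and 20.9 in DOX-negative cells and 16.5, 15.5 and 13.4 in DOX-positive cells. The ratios overlapped between the groups, and the difference in mean log2 ratio was -0.20 with a two-sided exact permutation p of 0.5, or 0.6 after adjustment.

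**Figure D2:**
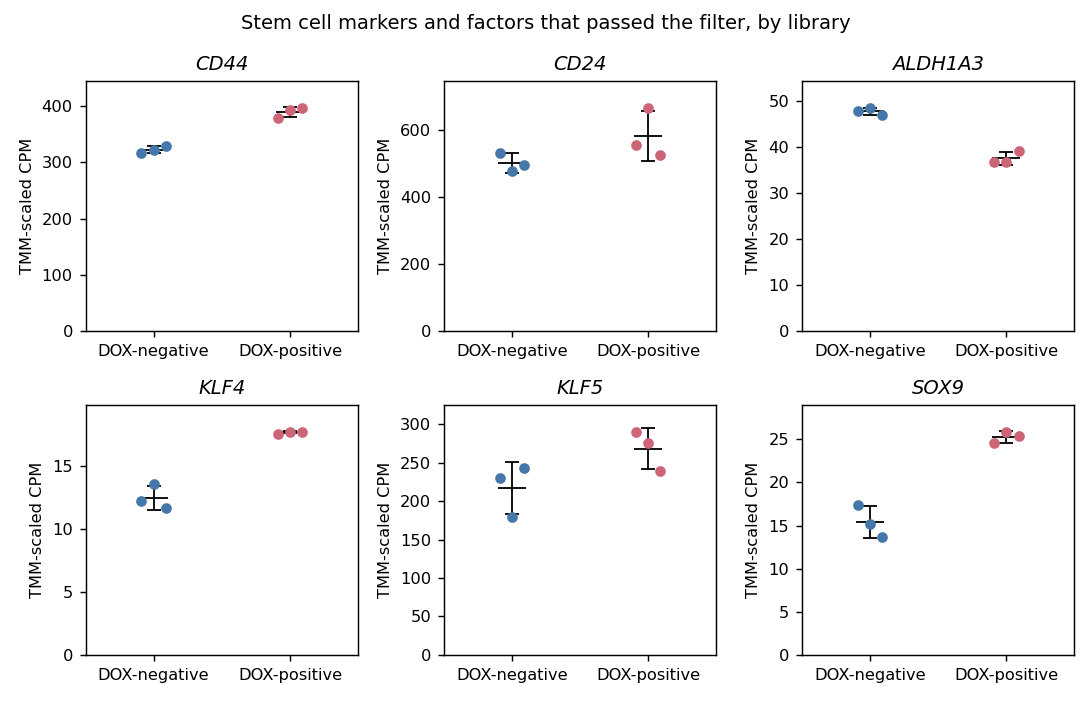
TMM-scaled CPM of the 6 tested genes in each library, with a panel per gene, points for the libraries and a line for the mean with its SD (n = 3 per group). DOX-positive libraries lie above DOX-negative libraries for CD44, KLF4 and SOX9, below them for ALDH1A3, and overlap them for CD24 and KLF5.

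Of the 6 tested genes, 5 rose (CD44, CD24, KLF4, KLF5 and SOX9) and 1 fell (ALDH1A3) at an adjusted p under 0.05, although CD44, CD24 and KLF5 were lower in the deposited TPM, as given further on. Over all 14292 genes tested, 26.7% passed this threshold, 13.0% upward and 13.7% downward. Abundant genes were called more often, and among the 8339 genes with an average level at least that of the lowest of the 6, 33.2% were called. The groups did not overlap for 4 of the 6 genes, against 39.8% of all genes tested. The changes were moderate, between 0.22 and 0.72 in size on the log2 scale, and none reached a log2 fold change of 1. Their median with sign was 0.29, against -0.0034 over all genes tested. Their sizes compare with a median size, without sign, of 0.41 over all genes called.

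Genes that work with the 10 were then described, from lists of 149 genes in all. The lists were chosen with earlier results of these data known, so their shares of calls are a description only. Of these, 87 were tested and 39 called (24 higher and 15 lower). Of all genes tested, 26.7% were called, and 33.2% of those at least as abundant as the lowest of the 6. The share called was 55.6% for CD44 partners, 53.3% for other surface markers, 50% for other ALDH and 35.7% for retinoid genes. It was 33.3% for other KLF, 14.3% for other SOX and 55.6% for pluripotency genes. Among 25 genes of hyaluronan metabolism and CD44 partners, 18 were tested, 7 rose and 3 fell, with a median log2 fold change of 0.17. ESRP1, the epithelial splicing regulator known for the choice between CD44 isoforms, was at 9.14, 7.57 and 7.41 CPM in DOX-negative cells and 20.3, 34.8 and 21.0 CPM in DOX-positive cells. All DOX-positive libraries were higher and replicate 2 was the highest, with a log2 fold change of 1.66 and adjusted p = 1.80e-07, or 1.36 without that library. MMP14, a membrane metalloprotease that can cut CD44, rose from 34.6 ± 0.855 to 68.3 ± 2.77 CPM, a log2 fold change of 0.98 (adjusted p = 4.95e-09).

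CEMIP, a hyaluronan-degrading factor, had a log2 fold change of 0.50 (adjusted p = 0.0325), but 0.19 without DOX-positive replicate 2 (adjusted p = 0.335). The linkers that tie CD44 to actin were split. EZR (ezrin), named after its values were seen, was at 368, 372 and 392 CPM without DOX and at 509, 492 and 497 CPM with it, and rose with a log2 fold change of 0.40 and adjusted p = 2.43e-05. RDX (radixin) fell from a mean of 376 to 313 CPM with a log2 fold change of -0.26 and adjusted p = 0.00457, and MSN (moesin) fell from 540 to 452 CPM with a log2 fold change of -0.26 and adjusted p = 0.00290. ADAM10, a sheddase of CD44, had a log2 fold change of -0.19 with adjusted p = 0.0333, and 4 of the 6 fits without 1 library lost the call, at up to 0.168.

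Among 22 other surface markers used for stem or progenitor cells, 15 were tested, 4 rose and 4 fell, with a median log2 fold change of -0.025. EPCAM, an epithelial adhesion protein used with CD44 in sorting, was at 29.5, 31.8 and 30.3 CPM in DOX-negative cells and 78.8, 84.6 and 82.8 CPM in DOX-positive cells. The groups lay far apart, with a log2 fold change of 1.43 and adjusted p = 1.68e-11. ITGA6, the laminin-binding integrin alpha chain of basal progenitors, rose from a mean of 170 to 257 CPM (log2 fold change 0.60, adjusted p = 3.96e-07). NT5E (CD73) rose from 316 to 448 CPM (log2 fold change 0.51, adjusted p = 9.22e-06).

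In the same list, ABCG2, the drug-efflux transporter that defines side-population cells, was at 10.6, 10.8 and 10.9 CPM in DOX-negative cells and 7.23, 6.90 and 5.85 CPM in DOX-positive cells. It fell without overlap, with a log2 fold change of -0.69 and adjusted p = 8.67e-04. MCAM (CD146) fell from a mean of 29.4 to 17.1 CPM (log2 fold change -0.78, adjusted p = 2.70e-06), and LGR4, an R-spondin receptor, from 168 to 134 CPM (log2 fold change -0.33, adjusted p = 4.46e-04). Calls over all genes tested were split nearly as evenly, with 1861 higher and 1955 lower.

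The enzymes around ALDH1A3 were also mixed. Of 16 other ALDH genes, 12 were tested, 5 rose and 1 fell, with a median log2 fold change of -0.010. The 6 calls became 3 without DOX-negative replicate 1 or 3 or DOX-positive replicate 1. ALDH2, the mitochondrial acetaldehyde dehydrogenase, rose from a mean of 79.5 to 105 CPM (log2 fold change 0.40, adjusted p = 2.73e-04). ALDH6A1, of valine breakdown, and ALDH1L2, of mitochondrial folate metabolism, had log2 fold changes of 0.77 (adjusted p = 5.07e-04) and 0.66 (adjusted p = 1.64e-04), and of 0.48 and 0.47 without DOX-positive replicate 2. ALDH16A1 had a log2 fold change of -0.35 with adjusted p = 0.0433, and this call was lost in every fit without 1 library.

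Of 25 genes of retinoid handling and response, 14 were tested, 2 rose and 3 fell, with a median log2 fold change of 0.040. TGM2, a transglutaminase that retinoic acid is known to induce, was at 642, 681 and 595 CPM in DOX-negative cells and 1313, 1327 and 1266 CPM in DOX-positive cells. It rose while ALDH1A3 fell, with a log2 fold change of 1.03 and adjusted p = 1.68e-10. RDH11, a retinal reductase, rose by a log2 fold change of 0.30 (adjusted p = 6.99e-04). CRABP2, which carries retinoic acid to its receptors, fell from a mean of 12.2 to 6.95 CPM (log2 fold change -0.81, adjusted p = 2.26e-04), and RXRA, a shared partner of those receptors, had a log2 fold change of -0.25 (adjusted p = 0.0425) that was lost in every fit without 1 library.

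KLF6, a zinc-finger factor of the same family as KLF4 and KLF5, had a larger change than either. It was at 122, 129 and 145 CPM in DOX-negative cells and 336, 294 and 362 CPM in DOX-positive cells, and rose with a log2 fold change of 1.33 and adjusted p = 5.16e-11. Of 15 other KLF genes, 12 were tested, 4 rose and 0 fell, with a median log2 fold change of 0.084, although KLF2 and KLF13 were lower in the deposited TPM. The 4 calls became 2 without DOX-negative replicate 2 or DOX-positive replicate 1. KLF13 rose with a log2 fold change of 0.33 (adjusted p = 0.00449), and KLF2, a factor of quiescent endothelium and T cells, with 0.37 (adjusted p = 0.0161).

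The other SOX genes moved less than SOX9. Of 17 listed, 7 were tested, 0 rose and 1 fell, with a median log2 fold change of -0.0073. The gene that fell was SOX12, from a mean of 31.4 to 25.3 CPM (log2 fold change -0.31, adjusted p = 0.0223), a call lost in 4 of the 6 fits without 1 library.

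The pluripotency network around SOX2 and POU5F1 was largely silent. Of its 29 other genes, 20 were below the filter and 7 of these had 0 counts in every library. Of the 9 tested, 2 rose and 3 fell, with a median log2 fold change of -0.034. These 5 calls became 1 without DOX-negative replicate 1 or DOX-positive replicate 1, 3 when DOX-negative replicate 2 was left out, 2 when DOX-positive replicate 3 was, and 2 with a replicate block. STAT3 and IL6ST, which carry the LIF signal in mouse stem cells, had log2 fold changes of 0.19 each (adjusted p = 0.0212 and 0.0271). TBX3 fell from a mean of 8.07 to 5.15 CPM (log2 fold change -0.66, adjusted p = 0.00506). SALL4, a zinc-finger partner of OCT4, fell from 7.54 to 5.23 CPM (log2 fold change -0.54, adjusted p = 0.0333). Of the 31 called genes named from the related lists and the epithelial markers, 22 were called in every fit that left out 1 library. The calls of CEMIP, ADAM10, RXRA, ALDH16A1, KLF2, SOX12, STAT3, IL6ST and SALL4 were lost in at least 1 of these fits.

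**Figure D3:**
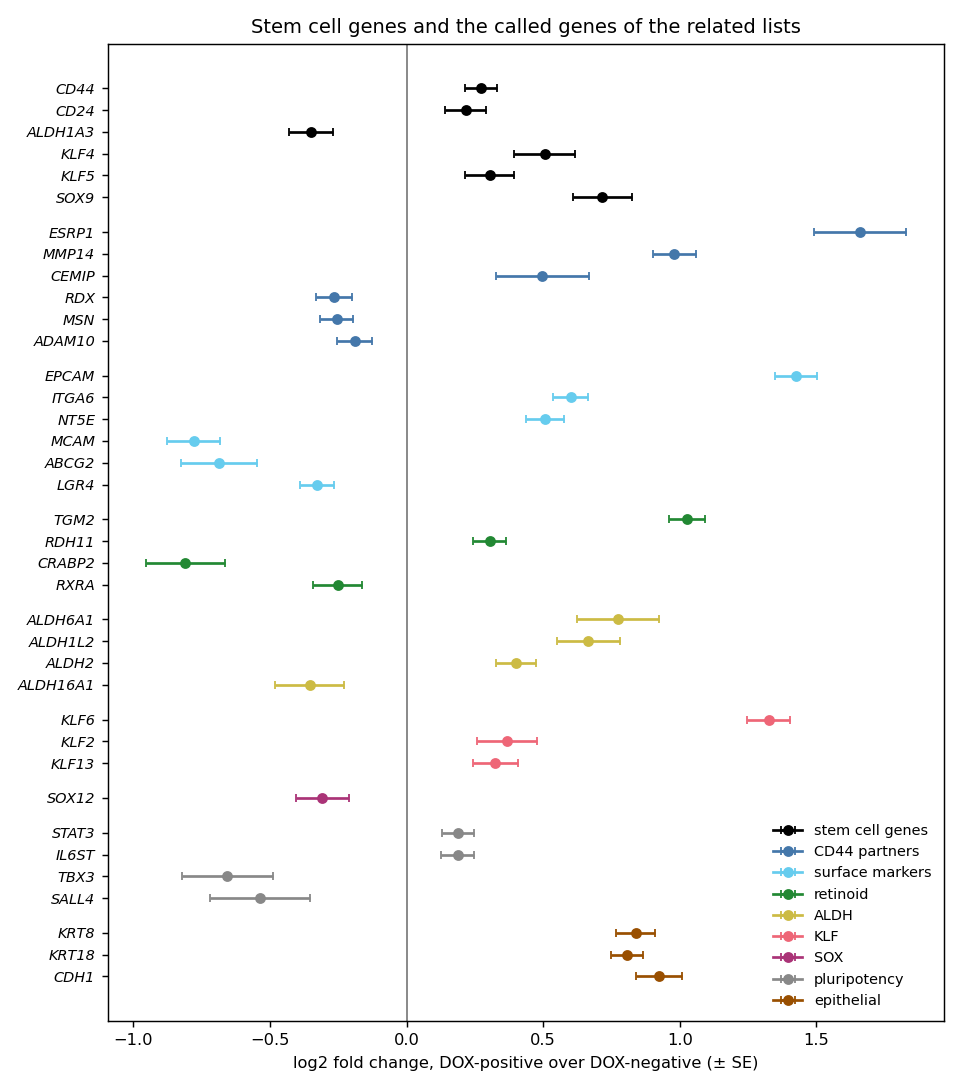
Log2 fold changes (DOX-positive over DOX-negative) of the 6 tested genes in black and of the called genes named from each related list in colour, with bars of 1 standard error. The 6 genes lie between -0.35 and 0.72, while KLF6, EPCAM and ESRP1 lie higher, at 1.33, 1.43 and 1.66, and MCAM and CRABP2 lie lower, at -0.78 and -0.81.

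Epithelial markers were higher in the same libraries as CD44, KLF4 and SOX9. The summed CPM of KRT8, KRT18, EPCAM and CDH1 was between 587 and 651 in DOX-negative libraries and between 1077 and 1165 in DOX-positive libraries, and 4 of the 4 rose. KRT8 had a log2 fold change of 0.84 (adjusted p = 1.38e-08), KRT18 of 0.81 (adjusted p = 1.61e-09) and CDH1, which encodes E-cadherin, of 0.92 (adjusted p = 3.01e-08). Their part in the changes of the 10 genes was not tested.

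Markers of other cell types stayed low in both groups. The 5 fibroblast markers (COL1A1, COL1A2, DCN, LUM, PDGFRA) summed to between 4.14 and 4.79 CPM in DOX-negative libraries and between 3.83 and 5.49 CPM in DOX-positive libraries. The 4 endothelial markers (PECAM1, CDH5, VWF, KDR) summed to at most 1.13 CPM in any library. Of the leukocyte markers, CD3E had 0 counts in all 6 libraries and PTPRC and LYZ were below the filter, as were SYP among the neuroendocrine markers and KLK2 and TMPRSS2 among the prostate markers.

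The transcripts that followed each gene most closely over the 6 libraries were found by Pearson's r of log2 CPM among 12362 genes, as a description. Since the libraries form the same 2 groups for every gene, most of this likeness is shared with any gene that differed between them. For CD44 the nearest were MPP5 and HSPA5, each with r = 0.998, and 454 genes had r of at least 0.95. For SOX9 they were SRSF8 and ITSN2, for KLF4 they were MYO5C and RAB11FIP5, and for ALDH1A3 they were NFYA and GTF3C4, with r between 0.997 and 0.998 after rounding. CD24 (AGK at 0.992, ABHD17C at 0.989) and KLF5 (ATP5O at 0.993, PUS3 at 0.986), whose groups overlapped, had fewer close followers, with 69 and 39 genes at r of at least 0.95.

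A heptamer that an earlier scan of these same data had picked out from 3′UTRs, ATCAGTA, was looked for in the principal transcripts of the 10 genes on the sense strand. CD44 alone held it in its 3′UTR of 3069 bases, at 1 site, printed here with the heptamer in capitals.
CD44: cagtcctttgATCAGTAtaatttttta
Over 12088 tested genes with a 3′UTR of at least 50 bases, 10.0% held the heptamer, with a median log2 fold change of -0.11 against 0.0015 for the others. The scan and these medians come from the same data, and a part of the site in the change of CD44 was not tested.

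The scale on which the libraries are compared bears on the direction of these changes. In the deposited TPM, the signal recognition particle RNAs RN7SL1, RN7SL2 and RN7SL3 took 34.4% to 64.4% of a library's total together with RN7SK and RPPH1, but only 0.488% to 1.76% of its counts, and the median of all genes shifted by -0.32 on the log2(TPM + 1) scale. CD44, CD24 and KLF5 were lower in DOX-positive cells on that scale, at -0.12, -0.18 and -0.081, and higher relative to the median of all genes, by 0.20, 0.14 and 0.24. KLF4 and SOX9 were higher and ALDH1A3 lower on both scales. Of the genes named from the related lists, RDH11, KLF2, KLF13, STAT3 and IL6ST were also lower in DOX-positive cells in the deposited TPM, and none reversed in a fit of the counts.

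**Figure D4:**
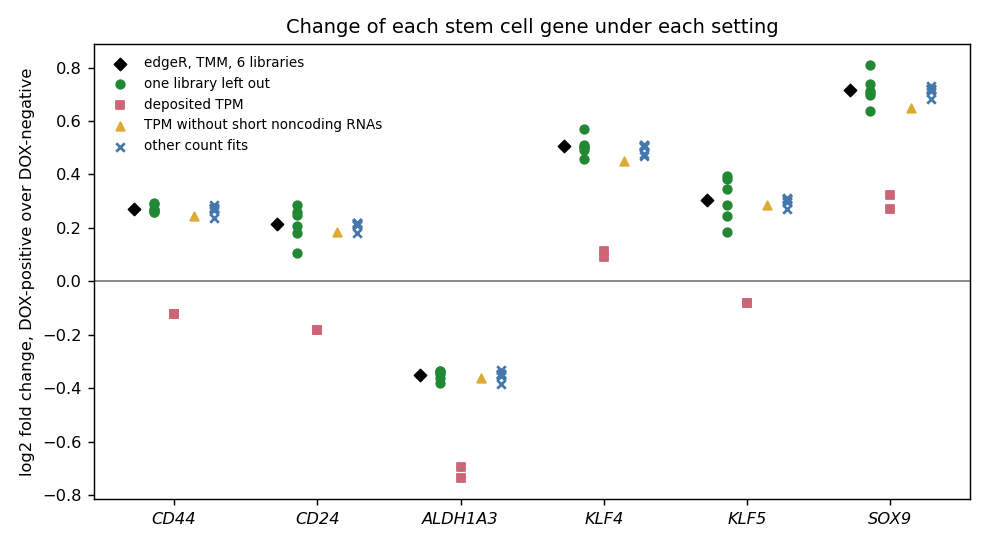
Log2 fold changes of the 6 tested genes, 1 column of points for each kind of fit, with black diamonds for the fit reported here. The count fits and the TPM without the short noncoding RNAs keep the direction of all 6 genes, while the deposited TPM places CD44, CD24 and KLF5 below 0.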

How the data were processed

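Poly(A)-selected stranded libraries were made by the authors from triplicate cultures of each group. The authors deposited whole-number read counts per gene, which are not normalised, and TPM values, which have an equal total in every library and cover 25546 genes. The submitters' processing notes name STAR, DESeq2 and the GRCh38 build. The counting step and its use of strand are not given in the sources used here. The count table holds 0 mitochondrially encoded genes. Samples were grouped by their titles. Nothing states that the cultures were independent experiments, so p-values measure only the spread between these samples.

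Counts were tested with edgeR 4.0.16 in R 4.3.3 (filterByExpr, TMM factors between 0.986 and 1.03, glmQLFit and glmQLFTest, two-sided, group as the only term), with Benjamini-Hochberg adjustment over all 14292 genes and a threshold of 0.05. CPM values use TMM-scaled library sizes. Ratios used SciPy 1.17.1. Alternatives were DESeq2 1.42.0, RLE factors, total counts, 2 other filters, thinned counts, a replicate block, limma 3.58.1 on log2(TPM + 1) and log2(TPM + 0.1), TPM rescaled without 5 short noncoding RNAs, a fold threshold, and each library left out in turn. Fold changes on the log2(TPM + pseudocount) scale understate the change of low genes. Positions come from GENCODE 29 and promoter sequences from RefSeq. The fits were tested on simulated counts.

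The 10 genes and the related lists were chosen with earlier results of these data known. Named from each list were, among called genes with an average logCPM of at least 1, at most the 3 largest rises and 3 largest falls, besides MUC1, the 10 genes, the cell type markers, and the 2 nearest genes by correlation (prior count 2). Some marker genes are not reported here. CEMIP2 and PLAAT4 were matched under older symbols. No library was a copy of another, since the chi-square per degree of freedom of each pair in a group was between 3.78 and 20.2.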

Additional observations from a re-analysis of the deposited data

How the results depend on the processing

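MUC1 was lower under every alternative, between -2.85 and -2.36 on the log2 scale. Of the 16 alternatives run for each gene, the call was kept in 14 for each of CD44, ALDH1A3, KLF4 and SOX9, in 11 for KLF5 and in 8 for CD24. With log2(TPM + 1), 443 genes, 0 of the 10 genes and 6 of the related-list genes were called, and with log2(TPM + 0.1) the counts were 408, 0 and 6. CD44, CD24 and KLF5 reversed to -0.12, -0.18 and -0.081 with log2(TPM + 1) and to -0.12, -0.18 and -0.082 with log2(TPM + 0.1). ALDH1A3, KLF4 and SOX9 kept their direction without passing the threshold, at -0.69, 0.090 and 0.27 with log2(TPM + 1). The share of calls that were higher fell from 48.8% to 6.77% and 7.11%, with medians over all genes of -0.32 and -0.39. Rescaled without the short noncoding RNAs, TPM gave 3097 genes (43.0% higher) and 4 of the 10 genes, CD24 and KLF5 being lost at adjusted p = 0.163 and 0.0670. A log2 fold change of at least 1 left 368 genes, 0 of the 10. Total counts gave 3836 genes (39.3% higher) and lost CD24 (adjusted p = 0.0790), and DESeq2 gave 3660 genes.

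Leaving out 1 library gave between 2784 and 3645 genes called, between 4 and 6 of the 10 genes (4 without DOX-negative replicate 2) and between 25 and 34 of the related-list genes (25 without DOX-negative replicate 1 or DOX-positive replicate 1). These fits have fewer samples. The order of levels rests on gene length, and by CPM 2 of the 10 genes kept their rank. With a replicate block, 3158 genes, 5 of the 10 and 28 of the related-list genes were called, CD24 being lost at adjusted p = 0.0809. Libraries with the same number did not deviate together over all genes tested (correlations -0.019, -0.095 and -0.027). Low and abundant genes counted equally in these correlations, so they cannot settle whether the numbers pair the samples. For the ratios, pairing by number leaves the difference in means the same by arithmetic, so the block could not change it and is no check. Depth limits PROM1, ALDH1A1, SOX2 and POU5F1, with at most 8 counts in a library. The cause of each lost call was not tested.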
